A study of Monodelphis domestica with 6 samples.

Results

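Epithelial-mesenchymal transition (EMT) is the switch by which cells that are tightly joined in a sheet loosen their contacts and take on the shape and motility of mesenchyme, and its reverse, the mesenchymal-epithelial transition, is a known early step when fibroblasts are reprogrammed. A small set of transcription factors sets the balance. The zinc-finger proteins ZEB1, ZEB2, SNAI1 and SNAI2 repress epithelial genes such as CDH1, the basic helix-loop-helix proteins TWIST1 and TWIST2 and the homeobox protein PRRX1 hold mesenchymal and connective tissue identity, and GRHL2, OVOL1 and OVOL2 maintain epithelial identity and oppose the ZEB factors.

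The expression of these 10 genes was examined in skin fibroblasts and induced pluripotent stem cells of the marsupial Monodelphis domestica, the gray short-tailed opossum. The members were taken by gene symbol, and all 10 had a row among the 35665 genes of the count and normalized expression tables.

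Neonatal skin fibroblasts (neoSFs) were primary cultures from 10-day-old female pups of 2 inbred strains, FD2M1 and LSD1 (here the name of a strain, not of the demethylase), kept for 3 to 4 passages in serum-containing fibroblast medium. The reprogrammed cells (monoiPSCs) came from neoSFs of the same strains. These were nucleofected with OriP/EBNA episomal plasmids for human OCT4, SOX2, NANOG, KLF4, LIN28 and cMYC, together with plasmids for mouse p53DD and EBNA1. The monoiPSCs were grown without feeders on Matrigel, in a medium with the factors LIF and bFGF and a ROCK inhibitor. There was 1 neoSF library per strain, and monoiPSCs of each strain were sequenced at passage 15 and at passage 25, giving 2 neoSF and 4 monoiPSC libraries. A line means here the monoiPSCs of a strain, since the sources used here speak of lines and of clones and do not settle whether both passages come from the same clone. Strain and line cannot be told apart, passage and clone may not be either, and p-values measure the spread between these libraries only.

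The neoSF libraries held 14278794 and 16982978 counts and the monoiPSC libraries 28684754 to 35564261. The neoSFs were read as single ends of 50 bases in-house and the monoiPSCs as paired ends of 150 bases by a sequencing company. Sequencing, culture medium and cell type therefore cannot be told apart in any comparison between neoSFs and monoiPSCs. Levels are normalized read counts (NRC), that is, counts scaled by 1 factor per library. A gene was considered expressed in a cell type at an NRC of at least 20 in all its libraries, and differentially expressed (DE) when edgeR gave an adjusted p of 0.05 or less and a change of 2-fold or more in its quasi-likelihood test across the 13072 genes expressed in either cell type. Levels are compared between libraries, for 1 gene or for the sum of a marker list. They are not compared between genes, because no transcript lengths were used. A gene's share of such a sum is a share of reads and does not measure its relative abundance. In bulk RNA, fewer cells that express a gene and less of its RNA per cell cannot be told apart.

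Of 9 fibroblast markers found, 8 were DE with lower levels in monoiPSCs, and the other, FBLN1, a matrix glycoprotein, was higher. Without FBLN1, a gene left out after its values were seen, their summed NRC fell from 1465140 and 1626873 in neoSFs to between 2119 and 7449 in monoiPSCs. All 9 pluripotency markers found were DE and higher in monoiPSCs. Over all tested genes, 24.3% were DE and higher and 21.6% DE and lower. Only 2 of the 9 pluripotency markers were expressed in neoSFs, and the others were tested through the monoiPSCs alone. The counts of both marker lists are a description.

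Among the 10 factors, SNAI2, PRRX1, TWIST2 and ZEB1 were lower and OVOL2 was higher in monoiPSCs, whereas ZEB2, SNAI1 and TWIST1 did not pass both thresholds and remained expressed in every monoiPSC library. The number of members expressed was 7 in neoSFs, 7 in monoiPSCs and 6 in both, and 8 were tested. Of these 8, 1 was DE and higher, where 24.3% of all tested genes were, and 4 were DE and lower, against 21.6% of all tested genes. The libraries of the groups did not overlap for 5 of the 8, against 73.2% of all tested genes. TWIST2 and OVOL2 entered the test through the single cell type in which they were expressed. These counts, and the p-values of TWIST2 and OVOL2, are therefore a description. On the log2 scale the median change (monoiPSC over neoSF) of the 8 members was -1.13, beside 0.08 over all tested genes. Over all tested genes, 3171 were DE and higher and 2829 DE and lower, against 4786 and 1931 without composition scaling, which raised the median of all genes by 0.53.

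**Figure D1:**
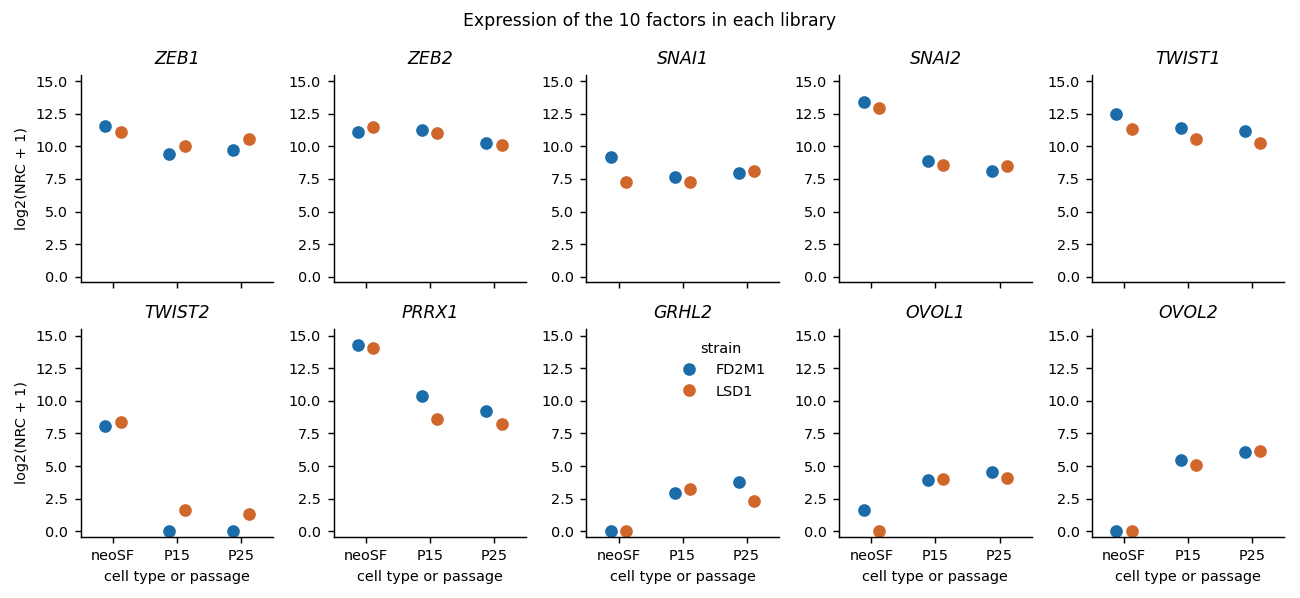
Level of each factor, as log2(NRC + 1), in the neoSF libraries and in the monoiPSC libraries at passage 15 (P15) and passage 25 (P25), with 1 point per library, blue for FD2M1 and orange for LSD1. SNAI2, PRRX1 and TWIST2 drop between neoSFs and monoiPSCs, ZEB2, SNAI1 and TWIST1 overlap between the cell types, and OVOL2 is at 0 in both neoSF libraries.

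SNAI2 (gene 100023459, chromosome 3 of MonDom5), also known as SLUG, is a SNAIL-family repressor with roles in neural crest and in skin mesenchyme. Its NRC was 10541 in FD2M1 neoSFs and 7702 in LSD1 neoSFs. At passage 15 and 25, the FD2M1 monoiPSC line had 464 and 281, and the LSD1 line had 381 and 351. Every monoiPSC library was thus below both neoSF libraries, at 3.09% to 5.09% of the mean neoSF level. The log2 fold change was -4.53 ± 0.23 (SE; edgeR adjusted p = 1.51e-05), and the gene remained expressed in all monoiPSC libraries.

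PRRX1 (gene 100014870, chromosome 2), a paired-related homeobox factor of limb and craniofacial mesenchyme and of dermal fibroblasts, was at an NRC of 19807 in FD2M1 and 17048 in LSD1 neoSFs. In the monoiPSCs, FD2M1 was at 1355 and LSD1 at 397 at passage 15, and at 596 and 299 at passage 25. All monoiPSC libraries were below both neoSF libraries, and the FD2M1 line was above the LSD1 line at either passage. The log2 fold change was -4.70 ± 0.57 (SE; edgeR adjusted p = 0.00038), with monoiPSC levels at 1.62% to 7.35% of the mean neoSF level.

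TWIST2 (gene 100009727, chromosome 2), also known as DERMO1, a regulator of dermal and connective tissue precursors, had an NRC of 272 in FD2M1 and 335 in LSD1 neoSFs. It was listed at 0 in both FD2M1 monoiPSC libraries, and the LSD1 line had an NRC of 2.10 at passage 15 and 1.55 at passage 25. The LSD1 values rest on 4 and 3 counts, so that the gene was near the limit of detection in the monoiPSCs. The summed counts, scaled for library size, were 296-fold higher in neoSFs, with an exact 95% interval of 142 to 741, which covers counting error only. The edgeR adjusted p was 0.00012.

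ZEB1 (gene 100023652, chromosome 8), the zinc-finger homeobox repressor best known for silencing CDH1, showed a smaller change. Its NRC was 2985 in FD2M1 and 2199 in LSD1 neoSFs. The FD2M1 monoiPSC line had 696 at passage 15 and 842 at passage 25, and the LSD1 line had 1040 and 1487. No monoiPSC library reached a neoSF library, but 26.8% to 57.4% of the mean neoSF level was retained. The log2 fold change was -1.26 ± 0.29 (SE; edgeR adjusted p = 0.00754). The call was lost when library totals were used without composition scaling (-0.73, edgeR adjusted p = 0.0556) and when the FD2M1 neoSF library was left out (-1.03, edgeR adjusted p = 0.0526).

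ZEB2 (gene 100619934, chromosome 4), the paralog of ZEB1, with known roles in neural crest and neural development, was at an NRC of 2234 in FD2M1 and 2917 in LSD1 neoSFs. The FD2M1 monoiPSC line had 2385 at passage 15 and 1204 at passage 25, and the LSD1 line had 2044 and 1076. The FD2M1 passage 15 library lay between the neoSF libraries, whereas both passage 25 libraries were below them. The log2 fold change was -0.52 ± 0.34 (SE; edgeR adjusted p = 0.214), and it was 0.00 without composition scaling. With the passage 25 monoiPSCs alone it was -1.09 and the gene was DE (edgeR adjusted p = 0.0121).

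SNAI1 (gene 100029017, chromosome 1), the SNAIL repressor that initiates EMT in many settings, differed between the neoSF libraries themselves. Its NRC was 579 in FD2M1 and 152 in LSD1 neoSFs. The FD2M1 monoiPSC line had 200 at passage 15 and 241 at passage 25, and the LSD1 line had 149 and 271. These values spanned the LSD1 neoSF level and were all below the FD2M1 one. The pooled log2 fold change of -0.66 ± 0.49 (SE; edgeR adjusted p = 0.271) depended on which neoSF library was used. It was 0.59 without the FD2M1 neoSFs (edgeR adjusted p = 0.266), and -1.33 without the LSD1 neoSFs, where the gene was DE (edgeR adjusted p = 0.0174).

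TWIST1 (gene 100019754, chromosome 8), the paralog of TWIST2 and a regulator of cranial mesoderm and neural crest mesenchyme, was at an NRC of 5732 in FD2M1 and 2635 in LSD1 neoSFs. The FD2M1 monoiPSC line had 2772 at passage 15 and 2284 at passage 25, and the LSD1 line had 1545 and 1241. Within each strain both monoiPSC libraries were below the neoSFs, but the FD2M1 passage 15 library was above the LSD1 neoSFs. The log2 fold change of -1.0 ± 0.39 (SE) was just outside the DE threshold with an edgeR adjusted p of 0.0564. With strain as a replicate block it was -0.96 ± 0.16 (SE; edgeR adjusted p = 0.00264), which passed the p threshold at a fold under 2. TWIST1 was DE with RLE size factors (-1.05, edgeR adjusted p = 0.0471), in DESeq2 (-1.05, adjusted p = 0.0188), without an expression filter (-1.0, edgeR adjusted p = 0.0492), without the LSD1 neoSFs (-1.45, edgeR adjusted p = 0.0202) and without the FD2M1 passage 15 monoiPSCs (-1.21, edgeR adjusted p = 0.0328). It was further from the threshold without the FD2M1 neoSFs (-0.34, edgeR adjusted p = 0.52) and without composition scaling (-0.47, edgeR adjusted p = 0.313).

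The 3 epithelial factors were at or under 3 counts in both neoSF libraries, so that their differences are given as lower bounds. OVOL2 (gene 100033256, chromosome 1), a zinc-finger repressor that keeps ZEB1 low in epithelia, was listed at 0 in both neoSF libraries. The FD2M1 monoiPSC line had an NRC of 42.1 at passage 15 and 66.5 at passage 25, and the LSD1 line had 32.1 and 70.6. It was at least 9.66-fold higher in monoiPSCs against a floor of 3 counts per neoSF library (edgeR adjusted p = 0.00101).

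OVOL1 (gene 100029987, chromosome 8), the OVOL paralog known from epidermal differentiation, had an NRC of 2.13 in FD2M1 neoSFs and was listed at 0 in LSD1 neoSFs. It was at 14.2 and 22.3 in the FD2M1 monoiPSC line at passage 15 and 25, and at 15.2 and 15.7 in the LSD1 line, at least 3.08-fold higher. An annotated protein-coding gene, LOC103092046, overlaps OVOL1 and had up to 253 counts in a library, and whether counting used strand is not given in the sources used here.

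GRHL2 (gene 100030797, chromosome 3), a grainyhead-like activator of CDH1 and other junction genes, was listed at 0 in both neoSF libraries. Its NRC was 6.62 and 12.6 in the FD2M1 monoiPSC line at passage 15 and 25, and 8.64 and 4.12 in the LSD1 line, at least 1.46-fold higher. Neither OVOL1 nor GRHL2 met the expression threshold in all monoiPSC libraries, so neither was tested. With no expression filter both were DE and higher (edgeR adjusted p = 0.00915 for OVOL1 and 0.0227 for GRHL2), in a test where 20.8% of 17704 genes were.

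Count ratios of paralogs were compared between libraries, and their size says nothing of which paralog is more abundant, since gene length and read type enter it. The count ratio of SNAI2 to SNAI1 was 18.2 and 50.7 in the neoSF libraries and 1.17 to 2.55 in the monoiPSC libraries. The mean log2 ratio was 4.93 in neoSFs and 0.79 in monoiPSCs, a difference of -4.13 with an exact two-sided permutation p of 0.0667, the smallest that 4 libraries against 2 allow. TWIST2 to TWIST1 stood at 0.0474 and 0.127 in neoSFs and between 0 and 0.00136 in monoiPSCs. ZEB2 to ZEB1 was 0.749 and 1.33 in neoSFs and 0.724 to 3.43 in monoiPSCs, where the ratio of the LSD1 line at passage 25 was below both neoSF libraries and those of the other 3 were above both (exact two-sided permutation p = 0.4).

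Whether the change depended on strain was tested with the interaction of strain and cell type, for which 0.0841% of tested genes passed the adjusted threshold. None of the 8 tested members was among them, in edgeR or DESeq2, whereas 3 members, ZEB1, SNAI1 and TWIST2, had an unadjusted p under 0.05 in edgeR. Of all 13072 tested genes, 1187 had an unadjusted interaction p under 0.05 in edgeR. SNAI2 had log2 fold changes of -4.72 ± 0.32 in FD2M1 and -4.31 ± 0.32 in LSD1, and their difference was 0.41 ± 0.45 (SE; edgeR interaction adjusted p = 0.909). ZEB2 was at -0.21 ± 0.52 in FD2M1 and -0.82 ± 0.51 in LSD1 (SE; edgeR interaction adjusted p = 0.92).

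ZEB1 changed by -1.86 ± 0.27 in FD2M1 and by -0.71 ± 0.27 in LSD1 (SE; edgeR interaction adjusted p = 0.457). For SNAI1 the log2 fold changes were -1.29 ± 0.42 in FD2M1 and 0.55 ± 0.45 in LSD1 (SE; edgeR interaction adjusted p = 0.456). PRRX1 was at -4.24 ± 0.48 in FD2M1 and -5.53 ± 0.51 in LSD1 (SE; edgeR interaction adjusted p = 0.691). TWIST1 was at -1.08 ± 0.23 in FD2M1 and -0.83 ± 0.23 in LSD1 (SE; edgeR interaction adjusted p = 0.93). In TWIST2 the interaction rests on 0 counts in FD2M1 against 7 in LSD1 monoiPSCs, which lie at or near the floor in both. For OVOL2, at 0 in both neoSF libraries, the interaction could not be estimated, so its lack of a call carries no information. Each strain had 1 neoSF library, so the SEs within strains and of the interaction hold no spread between neoSF libraries.

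**Figure D2:**
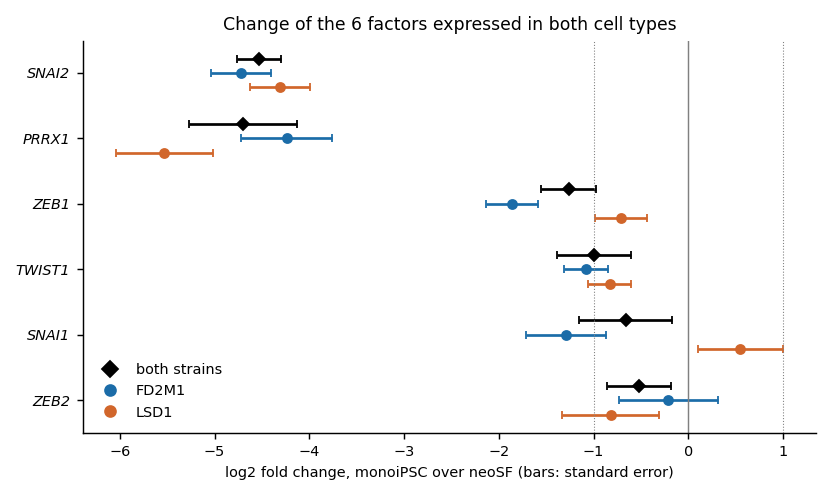
Log2 fold change of monoiPSC over neoSF, with its standard error, for the 6 factors expressed in both cell types, over both strains (black) and within FD2M1 (blue) and LSD1 (orange); dotted lines mark a 2-fold change. SNAI2 and PRRX1 lie at -4.24 or lower in either strain, and SNAI1 lies at -1.29 in FD2M1 and 0.55 in LSD1. The standard errors within a strain hold no spread between neoSF libraries.

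The monoiPSC libraries were also compared with each other, at passage 25 against passage 15 and between the lines, over the 12252 genes expressed in all 4. The test had 1 residual degree of freedom, and in edgeR 0% of genes were DE in either comparison, although 1144 genes had an unadjusted p under 0.05 in the passage comparison and 1734 in that of the lines. With DESeq2, 115 genes were DE by passage and 192 by strain. Among the 7 members tested, none was DE for passage with either tool, while 2, ZEB2 and PRRX1, had an unadjusted p under 0.05 in edgeR. For strain, PRRX1 was DE in DESeq2, and 3 members, ZEB1, TWIST1 and PRRX1, had an unadjusted p under 0.05 in edgeR.

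ZEB2 had the largest passage difference of the 7 members, with both lines at a lower level at passage 25. Its log2 difference was -0.97 ± 0.15 (SE; edgeR adjusted p = 0.165), and the adjusted p in DESeq2 was 0.0029 at a fold under 2. OVOL2 was at 0.88 ± 0.38 and PRRX1 at -0.82 ± 0.23 (SE; edgeR adjusted p = 0.548 and 0.414), and the PRRX1 value was 0.16 without the FD2M1 passage 15 library, with strain left out of that fit. ZEB1, SNAI1, SNAI2 and TWIST1 lay between -0.43 and 0.55.

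Between lines, PRRX1 differed by -1.38 ± 0.24 (LSD1 minus FD2M1, log2, SE), with an edgeR adjusted p of 0.137 and a DESeq2 adjusted p of 0.000562. TWIST1 was also lower in the LSD1 line, by -0.86 ± 0.15 (SE; edgeR adjusted p = 0.137, DESeq2 adjusted p = 0.00786), and ZEB1 was at 0.71 ± 0.17 (SE; edgeR adjusted p = 0.205, DESeq2 adjusted p = 0.113). In neoSFs the NRC of PRRX1 and TWIST1 was likewise lower in LSD1 than in FD2M1, and that of ZEB1 was lower in LSD1, opposite to its order in the monoiPSCs, with 1 library per strain and no test.

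**Figure D3:**
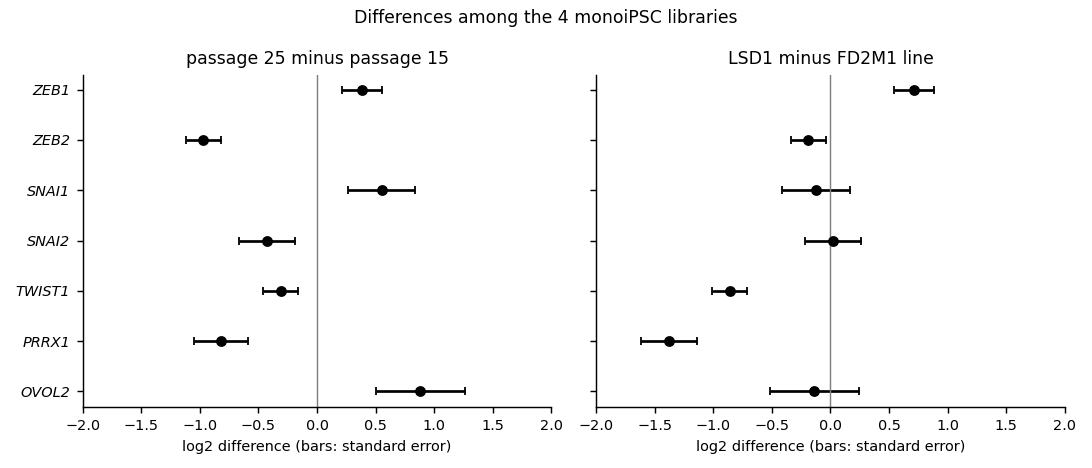
Log2 differences among the 4 monoiPSC libraries, with their standard errors, for the 7 factors expressed in all of them, for passage 25 minus passage 15 (left) and LSD1 minus FD2M1 (right). ZEB2 lies at -0.97 for passage, and PRRX1 at -1.38 and TWIST1 at -0.86 for strain.

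Levels of markers of other cell types were set beside these values. For the counts of DE markers, the shares over all tested genes were 24.3% higher and 21.6% lower. Some markers were tested through a single cell type in which they were expressed, as TFAP2A was through the neoSFs. These counts, and the p-value of TFAP2A, are therefore a description. Of 8 melanocyte and neural crest markers found, 6 were tested, and 4 were DE and higher in monoiPSCs, 1 DE and lower and 1 not DE. Their summed NRC was 549 and 1352 in neoSFs. In monoiPSCs, the FD2M1 line had a sum of 23609 at passage 15 and 12645 at passage 25. The LSD1 line had 30402 and 15463, so the sum was lower at the later passage in both lines. TFAP2B, a neural crest transcription factor, and DCT, a melanin synthesis enzyme, made up most of it. The related neural crest factor TFAP2A was DE and lower, at an NRC of 231 and 701 in neoSFs and 12.5 to 102 in monoiPSCs (-3.09 ± 0.81, SE; edgeR adjusted p = 0.0126), and the melanocyte regulator MITF was not DE (-0.11 ± 0.30, SE; edgeR adjusted p = 0.764). The pigment enzymes TYR and TYRP1 were at an NRC of 15.8 or less in every library.

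The 7 skeletal muscle markers found summed to 17649 and 21814 in neoSFs and to 2055 to 17536 in monoiPSCs, where the LSD1 line at passage 25 was highest. Of the 5 tested, the myogenic regulator MYOG was DE and higher (4.87 ± 1.13, SE; edgeR adjusted p = 0.00724), the cardiac actin gene ACTC1 was DE and lower (-2.89 ± 0.82, SE; edgeR adjusted p = 0.0171), and 3 were not DE. The 10 neural progenitor markers summed to 7201 and 25728 in neoSFs, mostly the intermediate filament gene NES, and to 16846 to 21648 in monoiPSCs, and of 6 tested 4 were DE and higher and 2 not DE. Among them FABP7, a fatty acid binding protein of radial glia, was at an NRC of 7.17 and 2.32 in neoSFs and 7748 to 12579 in monoiPSCs. The 9 early mesoderm markers found summed to 260 and 574 in neoSFs and 203 to 258 in monoiPSCs, and of 4 tested MEOX1 and MIXL1 were DE and higher, FOXF1 was DE and lower and 1 was not DE.

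The keratinocyte markers, 6 of 10 found, summed to 323 and 1908 in neoSFs and to 362 to 696 in monoiPSCs, and 1 of the 2 tested was DE and lower. Endothelial markers, 10 of 10 found, summed to 305 and 256 in neoSFs and 549 to 939 in monoiPSCs, with 1 of 4 tested DE and higher and 1 DE and lower. The 8 macrophage and blood markers found summed to 135 and 128 in neoSFs and 65.3 to 71.3 in monoiPSCs, with 1 of 2 tested DE and lower. The part of these markers' cells in the levels of ZEB2, SNAI1, SNAI2, TWIST1 and PRRX1 was not tested.

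The levels kept by the factors were set beside those of fibroblast genes, as a description. The fibroblast marker FBLN1 went the other way, at 999% to 1715% of its mean neoSF level in monoiPSCs. The collagen gene COL1A1 was at 0.0546% to 0.244% of its mean neoSF level in monoiPSCs, and the matrix proteoglycan gene DCN at 0.0942% to 0.38%. The smooth muscle actin gene ACTA2 was at an NRC of 48571 and 96297 in neoSFs and of at most 5.02 in monoiPSCs. PDGFRA, a growth factor receptor of mesenchymal cells, was at 3.48% to 40.8%, and the surface glycoprotein gene THY1 at 2.28% to 5.1%, in the range of SNAI2 and PRRX1. TWIST2 was at 0.694% or less, and ZEB1, ZEB2, SNAI1 and TWIST1 were at least at 26.8%.

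**Figure D4:**
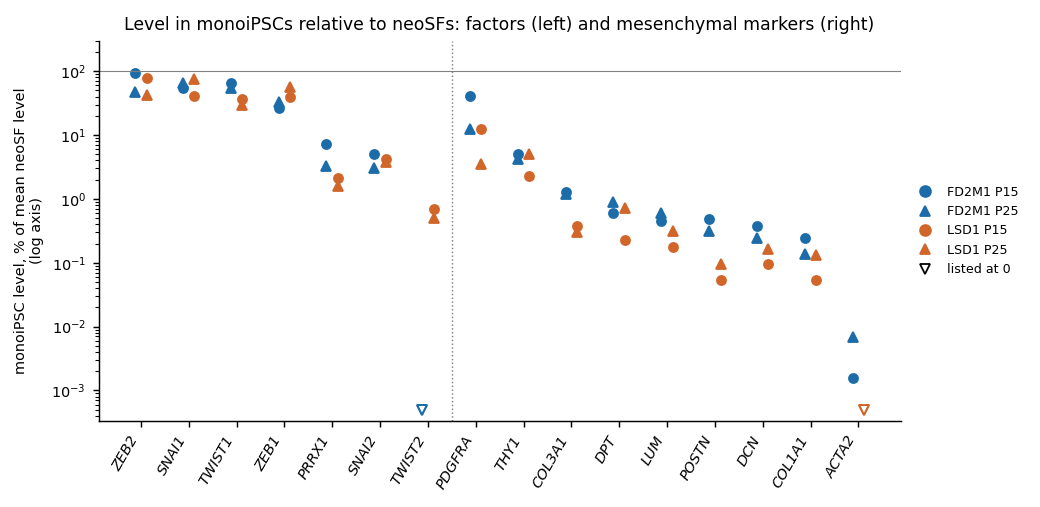
Level in each monoiPSC library as a percentage of the mean neoSF level, on a log axis, for the 7 factors expressed in neoSFs (left of the dotted line) and for 8 fibroblast markers and ACTA2 (right), blue for FD2M1 and orange for LSD1, circles for P15, upward triangles for P25 and open downward triangles for genes listed at 0. The other fibroblast marker found, FBLN1, was higher in monoiPSCs, at 999% to 1715%, and is not drawn. ZEB2, SNAI1, TWIST1 and ZEB1 lie between 26.8% and 92.6%, SNAI2 and PRRX1 between 1.62% and 7.35% and TWIST2 at 0.694% or less, beside PDGFRA and THY1 at 2.28% to 40.8% and COL1A1 and DCN at 0.38% or less.

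Epithelial genes, many of them known targets of ZEB and SNAIL repression, were mostly higher in monoiPSCs. Of 30 listed genes 26 were found and 19 tested, and 15 were DE and higher, 2 DE and lower and 2 not DE, around a median of 4.66 on the log2 scale. Genes that were tested because they were expressed in monoiPSCs alone were high there by selection. The counts of this and the following lists are therefore descriptions. So are the p-values of such genes, among them CDH1, GRHL1 and FOXQ1. Over all tested genes, 24.3% were DE and higher and 21.6% DE and lower, around a median of 0.08. CDH1, which encodes E-cadherin, the adherens junction protein, was at an NRC of 1.95 and 19.3 in neoSFs and 1476 to 2889 in monoiPSCs (log2 fold change 7.64 ± 0.63, SE; edgeR adjusted p = 7.57e-05). The adhesion molecule gene EPCAM was at 2.93 and 0 in neoSFs and 616 to 1542 in monoiPSCs, at least 212-fold higher. SPINT1, an epithelial protease inhibitor gene, was at least 69.9-fold higher.

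Of the epithelial list, 2 genes went the other way, a count that was 1 without either neoSF library or without composition scaling and 0 with the passage 25 monoiPSCs alone. The keratin gene KRT18 was DE and lower in monoiPSCs, from an NRC of 2466 and 19018 in neoSFs to 515 to 1595 (-3.20 ± 0.74, SE; edgeR adjusted p = 0.00712), and the desmoplakin gene DSP of desmosomes was also DE and lower (-1.70 ± 0.50, SE; edgeR adjusted p = 0.0194). CDH3, the P-cadherin gene, had the smallest change of the DE and higher genes (2.81 ± 0.59, SE; edgeR adjusted p = 0.00455). The splicing factor gene ESRP2, a known partner of epithelial identity that is named here after its values were seen, was listed at 0 in neoSFs and at an NRC of 19.2 to 38.9 in monoiPSCs, at least 5.29-fold higher, and was not tested.

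Mesenchymal effector genes were lower. Of 24 listed genes 21 were found and tested, and 19 were DE and lower and 2 not DE (1 gene was DE and higher when the LSD1 neoSFs were left out), around a median of -5.85 on the log2 scale. The intermediate filament gene VIM was at an NRC of 148706 and 122813 in neoSFs and 6266 to 8810 in monoiPSCs (-4.07 ± 0.22, SE; edgeR adjusted p = 1.71e-05), and so remained detected in every monoiPSC library, as SNAI2 and PRRX1 did. The protease gene MMP2 (-3.87 ± 0.20, SE; edgeR adjusted p = 1.52e-05) and PDGFRA (-2.43 ± 0.76, SE; edgeR adjusted p = 0.0248) had the smallest changes among the DE genes. COL1A1 (-9.37 ± 0.62, SE; edgeR adjusted p = 3.25e-05) was, with ACTA2, among the largest. The 2 that were not DE, named after their values were seen, were CDH2, the N-cadherin gene (0.44 ± 0.39, SE; edgeR adjusted p = 0.348), and the hyaluronan receptor gene CD44 (-0.12 ± 0.41, SE; edgeR adjusted p = 0.813).

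Paralogs of the members and other transcription factors of EMT or epithelial identity moved in both directions. All 18 listed were found and 12 tested. Beside 24.3% higher and 21.6% lower over all tested genes, 5 (41.7%) were DE and higher and 5 (41.7%) DE and lower, with a median of -0.27. Those DE and lower were 3 without the FD2M1 neoSFs, without composition scaling or with the passage 25 monoiPSCs alone. PRRX2, the paralog of PRRX1, was at an NRC of 7756 and 5991 in neoSFs and 67.0 to 308 in monoiPSCs (-5.35 ± 0.54, SE; edgeR adjusted p = 0.00017). GRHL1, a grainyhead-like paralog of GRHL2, was at 4.88 and 1.58 in neoSFs and 23.7 to 63.2 in monoiPSCs, at least 7.50-fold higher (edgeR adjusted p = 0.00455). Among the 3 other paralogs, SNAI3 was listed at 0 in neoSFs and had 2.25 to 14.0 in monoiPSCs, GRHL3 had 4.01 and 0 against 2.06 to 13.5, and OVOL3 had 1.95 and 5.08 against 2.25 to 9.47, and none of them was tested.

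The ETS-family gene ELF3, known from epithelia, was at least 51.2-fold higher in monoiPSCs, and the forkhead gene FOXQ1 was higher (4.48 ± 0.98, SE; edgeR adjusted p = 0.00551). FOXC1 (-2.16 ± 0.49, SE; edgeR adjusted p = 0.00665) and FOXC2 (-3.05 ± 0.62, SE; edgeR adjusted p = 0.00392), forkhead genes of mesenchyme, were lower. FOXC1, FOXC2 and PRRX2 thus remained at an NRC of at least 63.4 in all monoiPSC libraries.

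Corepressors, modifiers and degradation factors that act with SNAIL, ZEB and TWIST proteins were expressed in both cell types. All 25 listed were tested. Beside 24.3% higher and 21.6% lower over all tested genes, 10 (40%) were DE and higher, 2 (8%) DE and lower and 13 not DE, with a median of 0.65. Those DE and lower were 1 without the FD2M1 neoSFs, without composition scaling or with the monoiPSCs of either passage alone. The Polycomb methyltransferase gene EZH2 was at an NRC of 622 and 519 in neoSFs and 2761 to 3479 in monoiPSCs (2.56 ± 0.18, SE; edgeR adjusted p = 3.84e-05). The histone deacetylase gene HDAC1 (2.16 ± 0.24, SE; edgeR adjusted p = 0.000251), LIMD1, a LIM-domain corepressor gene (1.67 ± 0.25, SE; edgeR adjusted p = 0.00105), and FBXL14, which encodes a ubiquitin ligase subunit for SNAIL proteins (1.11 ± 0.20, SE; edgeR adjusted p = 0.00212), were higher. The LIM-domain corepressor gene AJUBA (-1.70 ± 0.26, SE; edgeR adjusted p = 0.00105) and ID1, an inhibitor of helix-loop-helix proteins (-1.60 ± 0.42, SE; edgeR adjusted p = 0.0128), were lower.

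**Figure D5:**
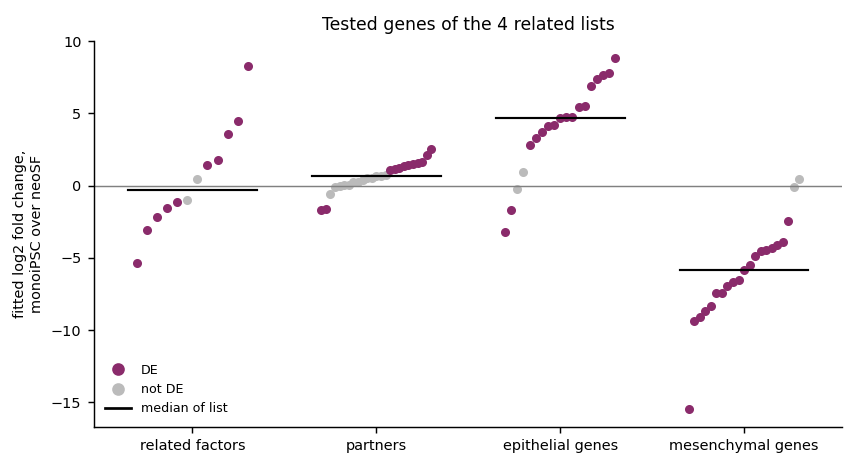
Fitted log2 fold change of monoiPSC over neoSF for the tested genes of the 4 lists, ordered within each list, with purple for DE and grey for other genes and a black line at the list's median. The medians are -0.27 for related factors, 0.65 for partners, 4.66 for epithelial and -5.85 for mesenchymal genes; fitted values of genes at the floor in a cell type are not bounds.

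The genes with the nearest profile to each tested member over the 6 libraries were found by the root mean square (RMS) difference of log2(NRC + 1) after centring each gene. ZEB1 was nearest to FBXO4 (RMS 0.0984) and TMEM50A (0.112), and ZEB2 to SUFU (0.157) and HLCS (0.16). SNAI1 was nearest to SERPINE2 (0.151) and SEL1L3 (0.168), and TWIST1 to MRPS6 (0.171) and MYO5A (0.18). These 4 members moved by 1.44 to 2.21 log2 units over the libraries. For SNAI2 the nearest were SYNC (0.192) and SERPINF1 (0.194), and for PRRX1 SYNPO (0.211) and CD248 (0.313). For TWIST2 they were FAM166B (0.482) and PRSS23 (0.512), and C4H3orf52 (0.201), also listed at 0 in neoSFs, was near to OVOL2.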

How the data were processed

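RNA was sequenced from 2 neoSF and 4 monoiPSC libraries. The authors demultiplexed in-house reads with bcl2fastq, aligned reads to MonDom5 and its RefSeq transcripts with StrandNGS, removed low-quality and non-primary multiply mapped reads, and deposited estimated counts per gene, 85.3% of which, among those above 0, were fractional. The deposited log2 values were normalized with DESeq by the authors; on the linear scale (NRC) they equal the count times 1 factor per library, and an NRC below 1 is listed as 0. A count of 1 equals an NRC of 1.95 and 1.58 in neoSFs and of 0.515 to 0.628 in monoiPSCs.

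Counts were rounded and tested with edgeR 4.0.16 (quasi-likelihood, TMM, Benjamini-Hochberg over all genes tested) in R 4.3.3, and the fit was tested on simulated data. DESeq2 1.42.0, limma 3.58.1, RLE and no composition scaling, no filter, strain as a replicate block, single passages and leaving out each library were alternatives. Passage and strain were fitted together in the 4 monoiPSC libraries, and the interaction in all 6. The monoiPSCs were derived from neoSFs of the same strains, which pairs the libraries by strain; deviations of the strains in neoSFs and monoiPSCs correlated at 0.0428 across genes. The SE is the absolute log2 fold change over the square root of F. A floor of 3 counts per library gave lower bounds, on TMM-scaled counts. The exact interval for TWIST2 covers counting error only. The bounds set the mean level of a group against this fixed floor and hold no interval for counting error.

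The 10 members were named by symbol. Of each list, the 3 highest and 3 lowest DE genes, DE genes against its majority and paralogs of members were named, and the lists were related factors, partners, epithelial and mesenchymal genes and 9 cell type marker lists. Members and lists were chosen with earlier results of these data known. Overlaps between genes come from the RefSeq table of another assembly, mMonDom1.pri, from which no coordinates were used. Promoter motifs and protein identities were not analysed here, and some genes that these rules name are not reported here.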

Additional observations from a re-analysis of the deposited data

Results flagged for a closer look

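In the 4 monoiPSC libraries, 36 genes (the 10 factors and genes of the lists) were checked for a library apart from the rest, by the gap of the highest or lowest log2(NRC + 1) to its neighbour over the whole range, against the 95% critical value of Dixon's test. None of the 10 factors passed it. FOXC2 had a gap of 0.865 of its range, with an NRC of 63.4 in FD2M1 at passage 15 and 248 to 306 in the others. Chance flags about 1 in 20 groups.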

How the results depend on the processing

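SNAI2, PRRX1, TWIST2 and OVOL2 kept their direction and their call under all 14 alternatives, and ZEB1 under 12 of 14. TWIST2 and OVOL2 passed the expression filter only through the cell type in which they were high, so their calls and adjusted p-values are a description. The log2 fold change ranged from -4.76 to -4.00 for SNAI2, -5.33 to -4.18 for PRRX1 and -1.51 to -0.73 for ZEB1. Adjusted p-values over the edgeR, DESeq2 and limma alternatives reached 0.00105 for SNAI2, 0.00532 for PRRX1, 0.0556 for ZEB1, 0.00297 for TWIST2 and 0.00777 for OVOL2, and ranged from 0.00264 to 0.52 for TWIST1, 0.0121 to 0.996 for ZEB2 and 0.0174 to 0.817 for SNAI1. Strain as a replicate block gave 6016 DE genes against 6000 and changed no call of a member. With this block TWIST1 was at -0.96 ± 0.16 (SE; edgeR adjusted p = 0.00264), at a fold under 2. Without an expression filter 3 members were DE and higher, since more genes were tested. ZEB2 was at 0.00 without composition scaling, and SNAI1 was at -1.33 to 0.59 when 1 library was left out, with 0.59 reached without the FD2M1 neoSFs.

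DESeq2 called 304 genes for the interaction, 115 for passage and 192 for strain, with 1 member, PRRX1, for strain, against 11, 0 and 0 in edgeR; the cause was not tested. Leaving out 1 library gave 0 to 113 interaction calls, 0 to 197 for passage and 0 to 50 for strain. Fits of passage or strain with a library left out drop the other term, since 3 libraries leave no residual degree of freedom with it. They then ranged, for passage, from -0.05 to 0.75 in ZEB1, -0.82 to 0.18 in TWIST1 and -1.59 to 0.16 in PRRX1, and for strain, from -0.73 to 0.38 in ZEB2, -0.54 to 0.30 in SNAI1, -0.33 to 0.39 in SNAI2 and -0.73 to 0.39 in OVOL2. Without the replicate block, the strain difference of SNAI2 was -0.02 against 0.02.

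With 2 neoSF libraries of lower depth, the floor of 3 counts corresponds to an NRC of 5.85 and 4.75 there, so levels of GRHL2 and OVOL1 below it could not be told from 0. The looser E-box motif was not run, since no promoter sequence was used here.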
